A study of Mus musculus with 5 samples.

Results

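Molecular chaperones bind unfolded proteins and help them fold, assemble or be degraded. The HSP70 proteins do this in cycles of ATP hydrolysis, in which DNAJ co-chaperones, named after a shared J domain, deliver the client and stimulate the ATPase, and nucleotide exchange factors release it again. Part of the family is always made, and part is switched on by heat shock factors when proteins misfold, as the endoplasmic reticulum members are by the unfolded protein response. Motile cilia depend on chaperones as well, since axonemal dynein arms are folded and assembled in the cytoplasm before they are carried into the cilium.

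The genes described here are those whose symbol begins with Hspa, Hspb, Hspd1, Hspe1, Hsph1, Hsp90, Dnaja, Dnajb or Dnajc, without Dnajb13. They number 71 of the 18193 genes that the array reads with a single-gene probe set. Where a gene had several, the one with the highest mean was taken. Hsp90ab1 and Dnajc19 are not analysed here.

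GFP+ cells of FOXJ1-GFP embryonic mouse lungs (E17.5) made up the 1 group of samples, sorted as 5 biological replicates with an Affymetrix array for each. FOXJ1-GFP is a reporter strain in which a FOXJ1 promoter drives GFP, so that differentiating multiciliated cells of the airways fluoresce, and it had been mated to outbred ICR mice. No sample of another genotype, stage or treatment is analysed here, so each gene was tested for its level alone and no gene could be called enriched in these cells. Separate litters are not stated for the replicates, and the p-values therefore cover only the spread among these 5 sorts.

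Levels are log2 signals, and a level was called above background when its mean exceeded 7.96 by the one-sided test of limma at an adjusted p under 0.05. To set that level, 136 genes that lung cells should lack were taken (71 olfactory or vomeronasal receptors and 65 genes of tissues such as liver, retina and skeletal muscle), and 95% of their means lie below it. Probe sets differ in brightness for the same amount of transcript, and no ranking of genes by level was made for that reason. All 19 measured markers of multiciliated cells were above background, among them Foxj1 at 12.82 ± 0.08 (SD, n = 5 arrays). So were all 11 markers of alveolar type 2 cells, all 12 of endothelial cells, 8 of 12 of white blood cells, 10 of 12 of mesenchymal cells and 1 of 7 of red blood cells. These are bulk RNA measurements, in which fewer cells of a type and less RNA per cell cannot be told apart.

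Most heat shock protein and DNAJ genes were above background. The test was passed by 60 of 71, or 84.5%, where 58.1% of all 18193 genes passed it. A level of 5, the number that the study set for average expression in its comparison of stages together with a fold change, was here applied as log2 to the E17.5 mean alone, and 65 of 71 passed it (81.3% of all genes), and 42 of 71 passed a stricter background, the 99th percentile (37.9% of all genes). Of the 60 genes, 21 lost the call in at least 1 of the alternatives tried, namely Hspa1a, Hspa12a, Hspa12b, Hspa13, Hspb6, Hspbap1, Dnaja3 and the DNAJC genes Dnajc2, Dnajc4, Dnajc5b, Dnajc9, Dnajc11, Dnajc12, Dnajc17, Dnajc18, Dnajc21, Dnajc22, Dnajc24, Dnajc25, Dnajc27 and Dnajc28. The 11 genes that did not pass the main test were Hspa1l, Hspb2, Hspb3, Hspb7, Hspb9, Dnajb3, Dnajb5, Dnajb7, Dnajb8, Dnajc5g and Dnajc6.

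**Figure D1:**
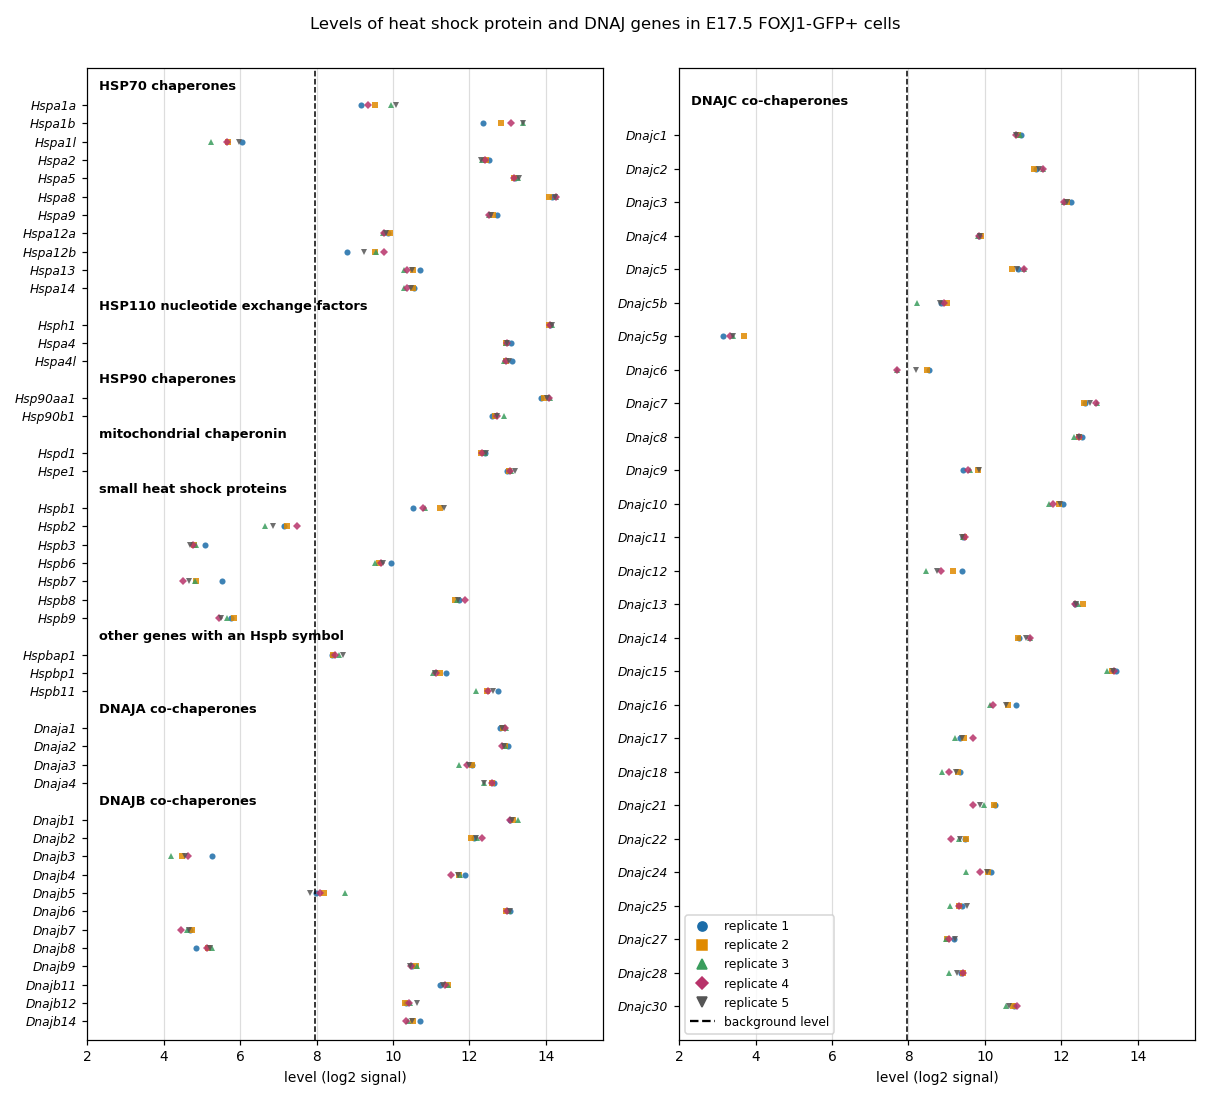
Levels of the 71 genes in the 5 sorts of FOXJ1-GFP+ cells. The horizontal axis is the log2 signal of the brightest probe set, each symbol is 1 replicate, genes are grouped by role, and the dashed line is the background level of 7.96. The 60 genes called above background lie to its right on every array, while Dnajb5 and Dnajc6 straddle it.

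Of the 11 HSP70 genes, 10 were above background (58.1% of all genes). Hspa8, the constitutive cytosolic HSP70, had values of 14.15, 14.08, 14.26, 14.26 and 14.25 on the arrays of replicates 1 to 5, a range of 0.18. Hspa5, the HSP70 of the endoplasmic reticulum known as BiP, was at 13.23 ± 0.07 (SD, n = 5 arrays here and below) and Hspa9, its mitochondrial counterpart, at 12.59 ± 0.09. Both thus varied little between sorts. Hspa2, an HSP70 known for its part in mouse spermatogenesis, was at 12.40 ± 0.09, 4.43 over the background level (adjusted p = 2.30e-10, limma). Hspa1l, another HSP70 of the testis, was at 5.72 ± 0.33 and not above background. Hspa13 and Hspa14 were at 10.48 ± 0.16 and 10.44 ± 0.11, and Hspa12a at 9.82 ± 0.08.

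Nucleotide exchange factors and HSP90 genes were above background throughout, where 58.1% of all genes were. The 3 HSP110 genes, whose products release nucleotide from HSP70, were Hsph1 at 14.12 ± 0.04, Hspa4 at 13.00 ± 0.05 and Hspa4l at 12.99 ± 0.08. Hsp90aa1, the heat-inducible cytosolic HSP90, was at 14.01 ± 0.10, and Hsp90b1, the HSP90 of the endoplasmic reticulum, at 12.73 ± 0.11. Hspbp1, another exchange factor of HSP70, was at 11.18 ± 0.14. Hspbap1, named as an Hspb1-associated protein, was the called gene nearest to the background level, at 8.52 ± 0.13 (adjusted p = 1.01e-04, limma).

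The small heat shock proteins split. Hspb1, Hspb6 and Hspb8, of which Hspb8 acts with the co-chaperone Bag3, were above background at 10.94 ± 0.33, 9.71 ± 0.16 and 11.72 ± 0.10. Hspb2, Hspb3 and Hspb7, known from heart and skeletal muscle, and Hspb9, known from testis, were not, at 7.08 ± 0.33, 4.84 ± 0.15, 4.88 ± 0.38 and 5.64 ± 0.16. Hspb11 carries the symbol but is a subunit of intraflagellar transport, IFT25, the train that moves cargo along the cilium. It had values of 12.75, 12.45, 12.18, 12.48 and 12.61 on the arrays of replicates 1 to 5, lowest in replicate 3. Its range of 0.57 was 0.30 without replicate 3.

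All 4 DNAJA genes were above background, with Dnaja1, Dnaja2 and Dnaja4 at 12.89 ± 0.06, 12.93 ± 0.05 and 12.52 ± 0.13 and Dnaja3, the mitochondrial one, at 11.96 ± 0.14. Of 12 DNAJB genes, 8 were, a share near the 58.1% of all genes. Dnajb1, the classical HSP40 that pairs with inducible HSP70, was at 13.13 ± 0.08, and Dnajb6, a suppressor of protein aggregation, at 13.02 ± 0.05. Dnajb2 was at 12.18 ± 0.10 and Dnajb4 at 11.72 ± 0.13. Dnajb12 and Dnajb14, which sit in the membrane of the endoplasmic reticulum, were at 10.43 ± 0.12 and 10.49 ± 0.14. Dnajb3, Dnajb7 and Dnajb8, known from testis, lay below the background level, at 4.63 ± 0.39, 4.63 ± 0.11 and 5.13 ± 0.16. Dnajb5 lay close to it, at 7.99, 8.20, 8.75, 8.10 and 7.82 in replicates 1 to 5 (adjusted p = 0.183, limma), so that replicate 5 was below and the other 4 above.

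Of the 27 DNAJC genes, which share only the J domain and have diverse tasks, 25 were above background (58.1% of all genes). Those that act on mitochondria included Dnajc15 at 13.34 ± 0.09, Dnajc30 at 10.71 ± 0.12 and Dnajc11 at 9.43 ± 0.04. Dnajc7, which binds HSP70 and HSP90 together, was at 12.76 ± 0.16, Dnajc8, a factor of the spliceosome, at 12.44 ± 0.08, and Dnajc13, which acts on endosomes, at 12.42 ± 0.09. Dnajc2, which works on the ribosome, was at 11.41 ± 0.11, and Dnajc9, a chaperone of histones, at 9.65 ± 0.17. The means of Dnajc4, Dnajc14, Dnajc17, Dnajc18, Dnajc22, Dnajc27 and Dnajc28 lay between 9.09 and 11.03, with ranges over the arrays of 0.07 to 0.47. The cysteine string proteins, co-chaperones of vesicle release, differed from each other in their calls. Dnajc5 was at 10.89 ± 0.12 and Dnajc5b, known from testis, at 8.77 ± 0.31, and both were above background, while Dnajc5g at 3.40 ± 0.20 was not. Dnajc6 encodes auxilin, which strips clathrin coats in neurons. It had values of 8.53, 8.48, 7.70, 7.70 and 8.20 in replicates 1 to 5 (adjusted p = 0.376, limma), on both sides of the background level. Gak, its widely expressed relative, was at 12.38 ± 0.08.

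Of 12 genes listed as muscle or germ cell members of the family, 3 were above background, where 58.1% of all genes were. These were Hspa2, Hspb6 and Dnajc5b, and the last 2 lost the call with the 99th percentile as background. For Dnajc5b the value of replicate 3, 8.23, lay apart from 8.86, 9.02, 8.92 and 8.83 in replicates 1, 2, 4 and 5 by Dixon's test, as did 1 array in 4.41% of all genes above background.

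Between the replicate sorts, most of these genes varied little. The range over the 5 arrays was 0.30 or less on the log2 scale in 33 of the 60 genes above background (55.0%, against 36.8% of all genes above background), and 0.5 or more in 10 (16.7%, against 29.8%). The median range was 0.28 for the 60 genes and 0.37 for all genes above background. The genes compared were not matched for level. Of the 60 genes, 42 also passed the 99th percentile background, as did 6898 of the 10565 genes above background. A part of level in the narrower ranges was not tested. The narrowest ranges were those of Dnajc4 at 0.07, Hsph1 at 0.09 and Dnajb6 at 0.10. The 10 with a range of 0.5 or more were Hspa1b, Hspa12b, Dnajc12, Hspa1a, Hspb1, Dnajc5b, Dnajc16, Dnajc24, Hspb11 and Dnajc21. With 1 array per sort there is no error within a replicate, so differences between arrays have no test.

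**Figure D2:**
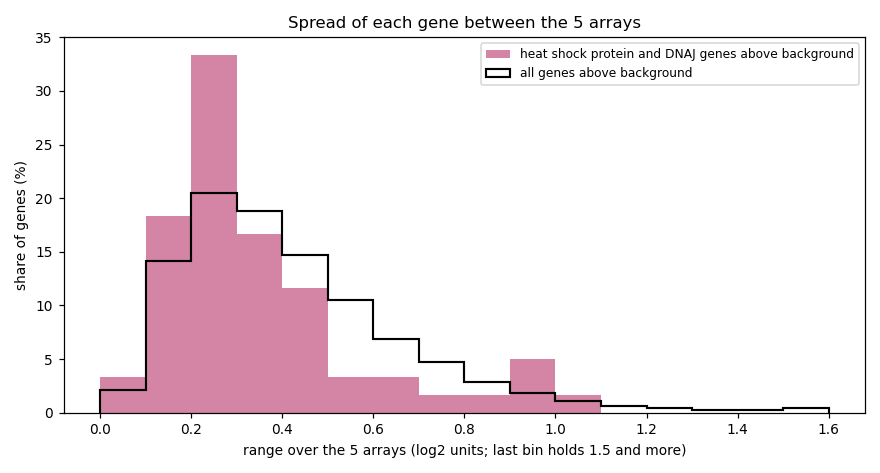
Share of genes by their range over the 5 arrays, the highest minus the lowest log2 value, in bins of 0.1. Filled bars are the 60 heat shock protein and DNAJ genes above background and the outline is all genes above background. The filled bars peak below 0.3, and Hspa1b at 1.06 is the widest of the 60.

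The inducible HSP70 genes Hspa1a and Hspa1b differed most between sorts among the heat-inducible members. The listed heat-inducible chaperones were 11 genes in these data, all above background, where 58.1% of all genes were. Of the 11, 8 had a range of 0.30 or less, and the other 3 were Hspa1a, Hspa1b and Hspb1. Hspa1b had values of 12.35, 12.82, 13.41, 13.10 and 13.40 in replicates 1 to 5, lowest in replicate 1 and highest in replicates 3 and 5, a 2.08-fold difference between the extremes. Without replicate 1 its range was 0.59 in place of 1.06. Hspa1a had values of 9.17, 9.53, 9.96, 9.35 and 10.08 in replicates 1 to 5, again lowest in replicate 1 and highest in replicates 3 and 5. The other probe sets of Hspa1b, 1427127_x_at and 1427126_at, ranged over 1.65 and 1.39, also from replicate 1 at the low end to replicate 3 at the high end. Hspa1a and Hspa1b are near-identical genes, so their probe sets may read both transcripts, and the values are uncertain as to which of the pair they measure.

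The widest range among the 114 probe sets of these genes that were above background, of 173 in all, was that of a further Hspa8 probe set, 1431182_at. It had values of 9.22, 9.97, 11.30, 10.14 and 10.78 in replicates 1 to 5, a 4.22-fold difference, with replicate 1 lowest and replicate 3 highest as in Hspa1b. The other Hspa8 probe sets above background, 1455789_x_at, 1420622_a_at and 1420623_x_at, did not share this spread, with SDs of 0.08, 0.07 and 0.05 against 0.80. Without replicate 1 the range of 1431182_at was 1.33 and without replicate 3 it was 1.56. Of the 114 probe sets, 4 had a range of 1 or more (3.51%, against 4.38% of all single-gene probe sets above background), and these were the 3 of Hspa1b and this one. Hspb1, a small heat shock protein, had values of 10.52, 11.22, 10.84, 10.78 and 11.33 in replicates 1 to 5, lowest in replicate 1 and highest in replicate 5. Its other probe set, 1425964_x_at, had the same lowest and highest arrays.

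The remaining heat-inducible genes were nearly level. Hsp90aa1 had values of 13.86, 13.95, 14.11, 14.07 and 14.03 in replicates 1 to 5. Dnajb1 was at 13.07, 13.14, 13.27, 13.06 and 13.11, and Dnaja1 at 12.80, 12.89, 12.97, 12.92 and 12.85. Hsph1 was at 14.11, 14.07, 14.16, 14.11 and 14.15. On these probe sets the 4 genes were highest in replicate 3, by small margins. Only Dnajb1 kept that array on every probe set above background. Dnaja1 was lowest in replicate 3 on 1460179_at, at 12.06. Hsp90aa1 and Hsph1 were highest in replicate 2 on 1426645_at and 1423566_a_at. Hspa4l was at 13.11, 12.96, 12.90, 12.95 and 13.03 and was highest in replicate 1. On its probe set 1439093_at replicate 3 was highest. Hspd1 and Hspe1 together form the folding chamber of mitochondria. Hspd1 was at 12.40, 12.31, 12.42, 12.34 and 12.44 in replicates 1 to 5. Hspe1 was at 12.99, 13.04, 13.09, 13.06 and 13.19, and both were highest in replicate 5. Averaged over the 11 genes, the deviation from the gene means was -0.17 in replicate 1, -0.03 in replicates 2 and 4, 0.09 in replicate 3 and 0.14 in replicate 5, a range of 0.30. The range was 0.15 without Hspa1a and Hspa1b, and 0.17 without replicate 1.

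**Figure D3:**
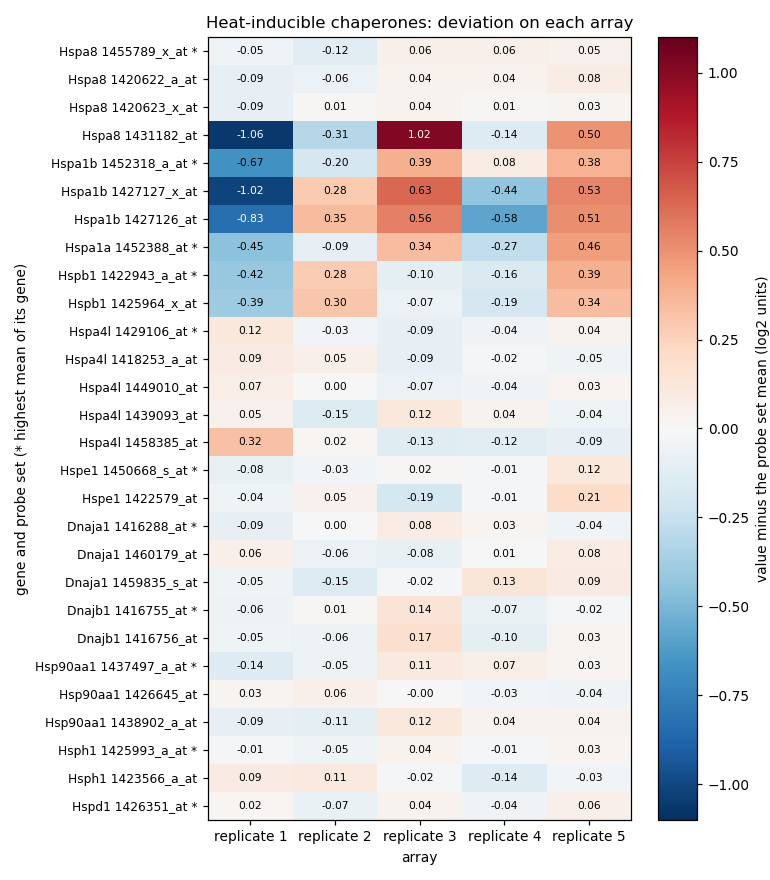
Deviation of each probe set above background from its own mean on the 5 arrays, for the 11 heat-inducible chaperone genes. Rows are probe sets, columns are replicates, the colour and the printed number give the deviation in log2 units, and an asterisk marks the probe set with the highest mean of its gene. The probe sets of Hspa1a, Hspa1b and Hspb1 and the Hspa8 probe set 1431182_at are low in replicate 1, and most other rows are pale.

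Heat shock factors bind inverted repeats of nGAAn, so the promoters of these genes were searched for the letters GAANNTTC, which read the same on both strands, and for a longer element that contains them, in which any 2 bases and a further GAA follow, on both strands. The windows, taken from RefSeq on GRCm38.p6, run from 250 bases before to 50 after each start, and 58 of the 71 genes had at least 1. GAANNTTC was found in 16 of their 75 windows, belonging to 14 genes, and 7.86% of all 32851 windows hold it. The longer element was found in 6 of the 75, belonging to Dnajb6, Hspd1, Hspe1 and Hsph1, and 0.603% of all windows hold it. Some windows overlap, so both counts hold fewer separate sites than windows. The windows of Dnajb6 hold the same site, as do those of Hsph1, and Hspd1 shares its sites with Hspe1. Stretches before the start are shown, with the motif in capitals, for the heat-inducible genes that differed most between sorts. Each of these held a match. Stretches are also shown for 3 genes with a match whose brightest probe sets were nearly level. Hspa12b, with a range of 0.97, had no match in its window, and Dnajc12 had no window.
Hspa1a, chr17:34972233-34972280, minus strand: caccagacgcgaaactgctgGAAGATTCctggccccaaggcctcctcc
Hspa1b, chr17:34959315-34959362, minus strand: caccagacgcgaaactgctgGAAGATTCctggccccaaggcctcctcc
Hspb1, chr5:135887782-135887849, plus strand: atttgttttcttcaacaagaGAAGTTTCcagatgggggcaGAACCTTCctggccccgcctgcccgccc
Dnaja1, chr4:40722324-40722371, plus strand: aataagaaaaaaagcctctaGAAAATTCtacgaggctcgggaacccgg
Hspe1, chr1:55088039-55088096, plus strand: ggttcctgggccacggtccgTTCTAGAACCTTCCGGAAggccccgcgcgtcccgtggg
Dnajb6, chr5:29735832-29735884, plus strand: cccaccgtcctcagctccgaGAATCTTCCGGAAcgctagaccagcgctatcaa

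The stretches of Hspa1a and Hspa1b are identical over all 48 bases, and their whole windows over 98.7% of bases. The longer element occurs in 2 overlapping copies in the Hspe1 stretch, and both copies lie in the Hspd1 window too, because these genes are divergently transcribed from neighbouring starts. The letters stand before Hspe1, Dnajb6 and Dnaja1, whose brightest probe sets were nearly level, and before Hspa1a, Hspa1b and Hspb1. A relation between the letters and the spread between sorts was not tested. The other probe sets of Dnajb6 above background varied more and went different ways. Of these, 1429777_at had a range of 0.88 and was lowest in replicate 1 and highest in replicate 3, 1429776_a_at had one of 0.73 and was highest in replicate 1 and lowest in replicate 3, and 1434035_at had one of 0.61 and was lowest in replicate 1 and highest in replicate 5. A match is a description of these letters and not of binding.

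All 9 listed chaperones of the endoplasmic reticulum were above background, where 58.1% of all genes were. The mean deviation of these 9 ranged over 0.09 between arrays, or over 0.16 with probe sets averaged and 0.17 without suffixed probe sets. The mean combines genes that were highest in different arrays. Hspa5 had values of 13.20, 13.16, 13.28, 13.17 and 13.31 in replicates 1 to 5, highest in replicate 5. Hsp90b1 had values of 12.60, 12.68, 12.91, 12.72 and 12.72, lowest in replicate 1 and highest in replicate 3, but its other probe set, 1438040_a_at, had a like range of 0.32 and was lowest in replicate 3 and highest in replicate 2. The DNAJ proteins of this compartment recruit Hspa5 to its clients. Of the 6 that follow, the first 4 had ranges of 0.20 or less, and Dnajc10 and Dnajc25 had ranges of 0.35 and 0.45. Dnajb9 was at 10.50, 10.59, 10.62, 10.46 and 10.44 in replicates 1 to 5. Dnajb11 was at 11.24, 11.45, 11.43, 11.35 and 11.31. These genes were highest in different replicates. Dnajc3, an inhibitor of the kinase PERK, was at 12.25, 12.14, 12.08, 12.08 and 12.16, and was highest in replicate 1, where Hspa1b was lowest. Dnajc1 was at 10.95, 10.86, 10.92, 10.81 and 10.81 and was also highest in replicate 1. Dnajc10, a disulphide reductase, was at 12.03, 11.93, 11.68, 11.77 and 11.96 and Hspa13 at 10.71, 10.52, 10.28, 10.38 and 10.50. Both were highest in replicate 1 and lowest in replicate 3. Dnajc25 was at 9.41, 9.33, 9.08, 9.33 and 9.52, lowest in replicate 3 and highest in replicate 5. Further probe sets above background gave other orders for some of these genes. Hspa5 was highest in replicate 2 on 1427464_s_at. Dnajc1 was lowest in replicate 1 and highest in replicate 4 on 1420501_at. Dnajc10 was lowest in replicate 2 and highest in replicate 5 on 1426905_a_at. Hspa13 was lowest in replicate 4 and highest in replicate 5 on 1453172_at.

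The unfolded protein response acts through the ER stress element, searched on both strands as CCAAT and CCACG with any 9 bases between them. It was found in 3 of the 75 windows, those of Hspa5, Hsp90b1 and Dnajc3, and 0.119% of all windows hold it. All 3 encode endoplasmic reticulum proteins, and their stretches are shown with the motif in capitals. Hsp90b1 holds it again further on, on the opposite strand.
Hspa5, chr2:34772005-34772063, plus strand: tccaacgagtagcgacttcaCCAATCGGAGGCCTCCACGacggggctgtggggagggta
Hsp90b1, chr10:86705513-86705676, minus strand: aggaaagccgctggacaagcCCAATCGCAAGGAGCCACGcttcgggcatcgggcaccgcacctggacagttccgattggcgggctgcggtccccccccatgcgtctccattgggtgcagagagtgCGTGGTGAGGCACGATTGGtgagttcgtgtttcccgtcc
Dnajc3, chr14:118937807-118937865, plus strand: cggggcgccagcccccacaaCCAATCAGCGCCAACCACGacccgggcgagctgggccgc

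Many DNAJC genes were lowest in replicate 3, where Hspa1b was highest. Of the 25 DNAJC genes above background, 14 were lowest in replicate 3 and 10 were highest in replicate 1, and the mean deviation over the 27 measured was -0.13 in replicate 3 and 0.07 in replicates 1 and 2. Over the 60 heat shock protein and DNAJ genes above background, 25 (41.7%) were lowest in replicate 3 and 24 (40.0%) highest in replicate 1, where 33.7% and 31.4% of all genes above background were. The highest value lay in replicates 2 to 5 in 7, 12, 6 and 11 of the 60 genes, against 16.3%, 20.7%, 22.8% and 8.78% of all. The lowest lay in replicates 1, 2, 4 and 5 in 11, 12, 9 and 3, against 20.5%, 18.4%, 15.0% and 12.3% of all. Replicate 1 was thus most often the highest and replicate 3 most often the lowest for genes in general too. Dnajc12, which binds the aromatic amino acid hydroxylases, had values of 9.41, 9.16, 8.45, 8.84 and 8.76 in replicates 1 to 5. Dnajc16 had values of 10.81, 10.61, 10.14, 10.21 and 10.54, and Dnajc24, which acts in diphthamide synthesis, of 10.17, 10.08, 9.51, 9.86 and 10.06. These were highest in replicate 1 and lowest in replicate 3. Dnajc21, a factor of ribosome assembly, had values of 10.26, 10.24, 9.98, 9.70 and 9.87 and was lowest in replicate 4. Without replicate 3 the range of Dnajc24 was 0.31 in place of 0.66, and that of Dnajc5b 0.19 in place of 0.79.

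Several measures of the samples also differed between arrays. Markers of alveolar type 2 cells deviated by -0.61 in replicate 1 and 0.69 in replicate 5, the mean level of the list running over 10.94 to 12.23. Endothelial markers deviated by -0.55 in replicate 1 and 0.43 in replicate 3, with a mean level over 10.55 to 11.53. White blood cell markers deviated by -0.43 in replicate 1 and 0.27 in replicate 5, with a mean level over 8.12 to 8.82, and Ptprc, C1qa, Itgam and Aif1 were not above background. Mesenchymal markers deviated by -0.20 in replicate 1 and 0.17 in replicate 5, with a mean level over 10.54 to 10.90, and Dcn and Lum were not above background. All 4 lists were thus lowest in replicate 1, as were Hspa1a, Hspa1b and Hspb1. In replicates 3 and 5, where Hspa1b was highest, the lists differed from each other. The alveolar type 2 list was at -0.12 in replicate 3 and the endothelial list at -0.15 in replicate 5. White blood cell markers were at 0.05 and 0.27 in these replicates, and mesenchymal markers at 0.14 and 0.17. The mean deviation of the multiciliated markers ranged over 0.07. Single multiciliated markers varied more, with a median range of 0.23. Dnah5, whose SD of 0.69 was the largest of the 19, had values of 10.85, 10.69, 9.24, 9.74 and 9.69 in replicates 1 to 5. Hspa12b, an HSP70 known from endothelial cells, had values of 8.80, 9.52, 9.55, 9.77 and 9.25 in replicates 1 to 5, also lowest in replicate 1, and its range of 0.97 was 0.52 without that array. Of the 26 immediate early genes, the first response of cells to a stimulus, 24 were above background, and their list was highest in replicate 2 at 0.27 and lowest in replicate 4 at -0.23. The 3′ minus 5′ difference of the Gapdh control probe sets was 1.43 in replicate 3 and 1.02, 1.03, 1.25 and 1.14 in replicates 1, 2, 4 and 5, and that of Actb lay between 0.51 and 0.72. The part of these measures in the differences between arrays was not tested.

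**Figure D4:**
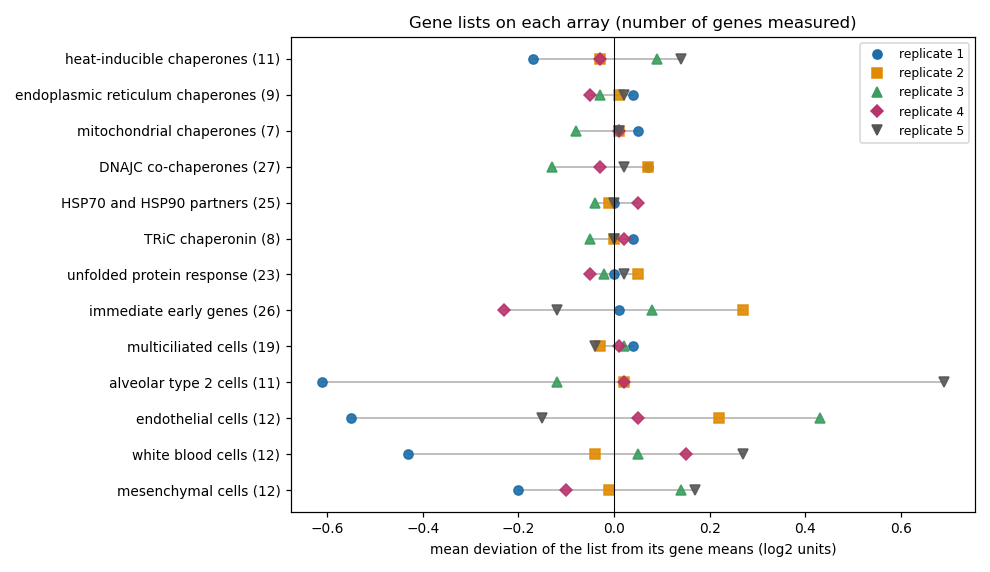
Gene lists by array, as the mean over a list's genes of the value minus the gene's own mean. The horizontal axis is in log2 units, each symbol is 1 replicate, and the number of measured genes stands beside each list. The heat-inducible chaperones span 0.30, the endoplasmic reticulum chaperones 0.09 and the multiciliated markers 0.07, against 1.30 for the alveolar type 2 and 0.98 for the endothelial markers.

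The call above background depended on the probe set in a share of the genes. Of 46 genes with more than 1 probe set, 18 had all of them above background, 3 had none and 25 had probe sets on both sides. Hspa9 had 2 of 5 above background, at 12.59 ± 0.09 and 11.89 ± 0.06, and Hspa5 had 2 of 3. Of the 33 genes with at least 2 probe sets above background, all of a gene's probe sets had the same highest array in 13 and the same lowest array in 9. Hspa4 shows the difference, since its probe sets 1416146_at, 1435194_at and 1416147_at had ranges of 0.12, 0.46 and 0.92, and replicate 3 was lowest on the first and the last but replicate 5 on 1435194_at.

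Genes that work with these chaperones or regulate them were above background for the most part. Of 63 such genes measured, 58 passed the test that 58.1% of all genes passed, and with the 26 immediate early genes 82 of 89 did. All 25 measured partners of HSP70 and HSP90 did, with an array range of 0.09 for their mean deviation. Among them Bag1, a nucleotide exchange factor, was at 13.28 ± 0.04, Bag2 at 9.58 ± 0.28, Bag3, the partner of Hspb8, at 8.91 ± 0.08, and Bag4 at 8.69 ± 0.37. All 8 genes of the TRiC chaperonin, which folds tubulin and actin, were above background as well, with Tcp1, Cct2, Cct3 and Cct4 at 13.53 ± 0.06, 13.66 ± 0.05, 13.37 ± 0.03 and 13.65 ± 0.03. Of 23 genes of the unfolded protein response 21 were, with Xbp1 at 11.11 ± 0.13, Atf4 at 12.95 ± 0.06, Atf6 at 10.56 ± 0.17 and Ern1 at 9.35 ± 0.13, and Trib3 at 7.58 ± 0.30 and Derl3 at 6.64 ± 0.20 were not. Of the heat shock factors measured, Hsf2 at 6.50 ± 0.30, Hsf4 at 5.27 ± 0.08 and Hsf5 at 4.49 ± 0.40 were not above background, and their binding protein Hsbp1 was, at 13.74 ± 0.10. Hsf1 is not analysed here. Besides Gak, the J-domain genes Sec63, of the translocon of the endoplasmic reticulum, and Hscb, of mitochondrial iron-sulphur cluster assembly, were above background at 10.73 ± 0.15 and 9.44 ± 0.33.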

How the data were processed

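RNA of GFP+ cells sorted after trypsin and EDTA dissociation was amplified and biotin-labelled with NuGEN kits and hybridised to 5 Affymetrix mouse expression arrays. Arrays were analysed with Bioconductor in R, and the authors deposited normalized values that lie on a log2 scale, judged by their span of 2.37 to 15.24. How they were summarised and normalized is not stated. Pearson's r between arrays was 0.987 to 0.994 across probe sets, and the number of arrays limits the precision.

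Genes were assigned by the platform's annotation. Of 45037 probe sets that are not controls, 34945 carried 1 gene, 932 several and 9160 none here, and identifiers of 99.4% of the first were in the RefSeq table of GRCm38.p6. The mean of each probe set (lmFit, eBayes, limma 3.58.1 under R 4.3.3) was tested one-sided against the background level, with Benjamini-Hochberg adjustment over the 45037 probe sets. The background level is a 95th percentile, and 6 of the 136 genes behind it were themselves called. Other steps used Python 3.11.15.

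The genes described and all lists were chosen with earlier results of these data known. Values on every array are given for the listed heat-inducible and endoplasmic reticulum chaperones and for the 10 called genes that varied most by SD. Arrays of Dnajb5, Dnajc6 and Dnah5, the probe sets singled out and Gak and Hsbp1 were chosen after their values were seen. Of partner lists, the first 4 genes and those against the majority are named. Protein sequences were not used here. As alternatives, probe sets were averaged, suffixed probe sets left out, arrays quantile-normalized or median-centred, the background level changed, a call on every array used in place of the test, and each replicate left out.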

Additional observations from a re-analysis of the deposited data

Results flagged for a closer look

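Among the 71 genes, 1 had a replicate far from the others by Dixon's test at the 95% level, which chance alone meets in about 1 in 20 groups. In Dnajc5b the gap between replicate 3, at 8.23, and the next value was 0.76 of the whole range. Among all genes above background, 4.41% had such an array.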

How the results depend on the processing

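No paired analysis was possible because the series has 1 group. The count of heat shock protein and DNAJ genes above background, 60 of 71, was 60 with each replicate left out, with quantile normalization, with median-centred arrays and with a call on every array. It was 51 with probe sets averaged (46.5% of all genes), 52 of 65 over probe sets without a suffix (59.1%), 53 with a background of tissue-restricted genes only (46.6%), 42 with the 99th percentile (37.9%), and 65 with the receptor genes alone or the level of 5 (81.3% each). Averaging lost 9 calls (Dnajc2, Dnajc11, Dnajc18, Dnajc21, Dnajc27, Dnajc28, Hspa12a, Hspa13 and Hspbap1). Leaving out suffixes lost 5 (Dnaja3, Dnajc2, Dnajc22, Dnajc27 and Hspa12a) and gained Dnajb5 and Dnajc6. The tissue-restricted background lost 7 (Dnajc5b, Dnajc12, Dnajc18, Dnajc27, Dnajc28, Hspa12b and Hspbap1). The 99th percentile lost 18 (Hspa1a, Hspa12a, Hspa12b, Hspb6, Hspbap1 and Dnajc4, Dnajc5b, Dnajc9, Dnajc11, Dnajc12, Dnajc17, Dnajc18, Dnajc21, Dnajc22, Dnajc24, Dnajc25, Dnajc27 and Dnajc28). The count of partner and immediate early genes, 82 of 89, ran over 72 to 88.

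The range of the heat-inducible mean deviation, 0.30, was 0.47 over probe sets without a suffix, where Hspa8 is read by 1431182_at, 0.17 to 0.30 with 1 replicate left out and, in alternatives chosen after seeing the data, 0.15 as a median over genes and 0.15 without Hspa1a and Hspa1b. That of the endoplasmic reticulum chaperones, 0.09, was 0.16 with probe sets averaged, 0.17 over probe sets without a suffix and 0.07 to 0.09 with 1 replicate left out. The median SD of the 71 genes, 0.128, was 0.115 over genes above background, 0.149 over probe sets without a suffix and 0.112 to 0.138 with 1 replicate left out.

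Of the genes with values on every array and those not above background, some levels changed sides of the background. With the 99th percentile, Hspa1a (-0.18), Dnajc12 (-0.88), Dnajc25 (-0.47), Dnajc5b (-1.03), Hspa12b (-0.42), Dnajb5 (-1.63) and Dnajc6 (-1.68) lay below it. With tissue-restricted genes only, Dnajc12 (-0.20), Dnajc5b (-0.35), Dnajb5 (-0.95) and Dnajc6 (-1.0) did, and with probe sets averaged Dnajc21 (-1.10), Dnajb5 (-0.88) and Dnajc6 (-3.11). With the receptor genes alone, Hspa1l (0.72), Hspb2 (2.08), Hspb9 (0.65) and Dnajb8 (0.13) lay above it, as they did with the level of 5 (0.72, 2.08, 0.64 and 0.13). The cause was not tested. Genes near 7.96 cannot be placed firmly with 5 arrays.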

Other observations

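The immediate early genes, which are not chaperones, included several above background with narrow spread and others that differed widely between sorts. Fos and Fosb, subunits of the transcription factor AP-1, were at 14.12 ± 0.06 and 12.55 ± 0.24 (SD, n = 5 arrays). Fosl2 was at 11.99 ± 0.18. Fosl1 had values of 8.22, 8.62, 8.09, 7.11 and 7.50 in replicates 1 to 5, and Myc of 8.25, 8.96, 8.48, 7.38 and 8.32. Neither Fosl1 nor Myc was above background, and both were highest in replicate 2 and lowest in replicate 4, an order unlike that of Hspa1b, which was lowest in replicate 1.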
